A study of Mus musculus with 6 samples.

Results

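The genes described here are 10 genes of ER-associated degradation (ERAD), the route by which misfolded proteins leave the endoplasmic reticulum (ER) to be destroyed, and the stress-induced partners of that route. They were picked by name, with earlier results of these data known, and their rows were found by gene symbol. They are Herpud1, Syvn1, Sel1l, Derl1, Derl2, Derl3, Edem1, Dnajb9, Selenos and Wfs1. All 10 have a row among the 32815 gene rows of the deposited table. The values come from poly(A) RNA-seq of C2C12, an immortalised mouse myoblast line labelled wild-type, in 3 untreated control libraries and 3 libraries of cells under cyclic mechanical stretch (MS). Stretch was applied by bending the culture plate, with a displacement of 4 mm (5333 μ, a unit the labels leave unexplained), at 1 Hz for 8 h. The labels set the tag MS6 beside the 8 h without explaining it, so the stretch time carries that doubt. The labels name no other agent, and all groups share 1 cell line and 1 batch label.

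As background, ERAD begins when lectins and chaperones in the ER lumen pick out proteins that fail to fold. A membrane complex around the ubiquitin ligase HRD1, encoded by Syvn1, then moves these proteins through the membrane and tags them with ubiquitin. The ATPase p97 pulls them into the cytosol for the proteasome. Many genes of the route are induced by the unfolded protein response, through the transcription factors ATF6, XBP1 and ATF4. In differentiated muscle a specialised part of the ER, the sarcoplasmic reticulum, is the calcium store for contraction, while the cells here are myoblasts.

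After stretch, transcripts of most of these genes were higher, by 17.9% to 115% for those that passed the test, and 1 was lower. Of the 9 genes that passed the filter, an average of 1 FPKM or more (fragments scaled to transcript length and library size), 6 rose, 1 fell and 2 did not pass the test. The test was limma on log2(FPKM + 1) over all 12028 genes above the filter, with a Benjamini-Hochberg adjusted p under 0.05 as the threshold. By the same rule 30.6% of all tested genes rose and 23.2% fell, 53.8% in all, so a call is common in this comparison. Median-ratio scaling of the libraries turned the balance of all calls, from 3683 higher and 2787 lower to 3094 higher and 3182 lower. The libraries of the 2 groups did not overlap for 8 of the 9 genes, beside 62.7% of all tested genes. Wfs1 and Herpud1 about doubled, with log2 fold changes of 1.01 and 0.95, and 1.80% and 2.1% of tested genes rose by more. For Dnajb9, Derl1, Sel1l and Syvn1, the other genes that rose, these shares were 5.36%, 8.95%, 19.1% and 29.5%. The median log2 fold change of the 9 genes was 0.33, beside 0.05 for all tested genes. Derl3 was close to 0 in every library and was not tested.

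The control regions of these genes are shown because Herpud1 and Syvn1, which rose, and Derl3, which was nearly silent, carry the exact letters of elements of the unfolded protein response. RefSeq windows of 300 bases around the gene start (build GRCm38.p6, an older build than the mm39 of the deposited table) matched 9 of the 10 genes, all but Derl1, with 2 windows for Derl2. Searches covered both strands for the ER stress response element ERSE (CCAAT, then 9 bases of any kind, then CCACG), its shorter form ERSE-II (ATTGG, then 1 base of any kind, then CCACG), an XBP1 element (TGACGTGG) and a composite element bound by ATF4 (TTGCATCA). No overlap between matches of these 4 motifs was found in the windows shown. Capitals mark the matches. The windows are chr8:94386179-94386478 on the plus strand for Herpud1, chr19:6046326-6046625 on the plus strand for Syvn1, chr10:75893148-75893447 on the plus strand for Derl3 and chr5:36988933-36989232 on the minus strand for Wfs1.
Herpud1: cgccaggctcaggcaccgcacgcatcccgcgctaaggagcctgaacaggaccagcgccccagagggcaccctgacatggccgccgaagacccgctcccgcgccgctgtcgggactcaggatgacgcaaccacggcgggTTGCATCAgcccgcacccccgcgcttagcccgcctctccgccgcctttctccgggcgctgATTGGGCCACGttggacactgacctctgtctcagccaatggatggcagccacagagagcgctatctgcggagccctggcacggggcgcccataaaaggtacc
Syvn1: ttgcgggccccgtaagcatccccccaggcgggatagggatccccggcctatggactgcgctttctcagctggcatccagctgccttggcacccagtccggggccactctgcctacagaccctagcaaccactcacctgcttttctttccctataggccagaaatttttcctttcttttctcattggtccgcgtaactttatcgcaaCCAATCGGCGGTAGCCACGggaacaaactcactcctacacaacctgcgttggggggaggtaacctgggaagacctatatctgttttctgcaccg
Derl3: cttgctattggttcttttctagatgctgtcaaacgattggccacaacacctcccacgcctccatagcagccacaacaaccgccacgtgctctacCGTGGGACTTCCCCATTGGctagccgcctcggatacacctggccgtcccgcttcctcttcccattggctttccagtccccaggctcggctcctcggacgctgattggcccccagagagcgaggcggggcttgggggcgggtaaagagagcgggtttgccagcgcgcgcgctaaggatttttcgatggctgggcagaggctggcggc
Wfs1: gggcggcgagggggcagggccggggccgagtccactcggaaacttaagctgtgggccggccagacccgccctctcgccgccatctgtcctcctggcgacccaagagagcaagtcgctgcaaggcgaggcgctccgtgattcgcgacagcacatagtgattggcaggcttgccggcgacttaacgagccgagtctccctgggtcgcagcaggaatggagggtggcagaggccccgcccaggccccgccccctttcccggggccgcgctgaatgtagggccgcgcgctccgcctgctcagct

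Herpud1 held ERSE-II at bases 199 to 209 of its window and the ATF4 composite element at bases 139 to 146. These elements are present in 0.0365% and 0.895% of all 32851 windows of this length. ERSE was found in Syvn1, at bases 207 to 225, and on the opposite strand in Derl3, at bases 95 to 113, against 0.119% of all windows. The XBP1 element was in none of the 9 genes' windows and in 0.676% of all windows. Wfs1, the gene with the largest rise, is shown for contrast, as its window held none of the 4 motifs. The windows of Dnajb9 and Sel1l, which rose, and of Derl2, Edem1 and Selenos held none of the 4 motifs either. The bare CCAAT letters, part of ERSE and ERSE-II, were in at least 1 window of each of the 9 genes and in 37.4% of all windows. Derl2 has 2 windows, and 1 of them held none of these letters. A match describes letters only, and its absence from a window of this size says nothing about a factor.

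The ligase complex is the core of the route. Syvn1 (chromosome 19, 6096606 to 6103742, mm39), the HRD1 ligase, measured 12.4, 12.5 and 12.2 FPKM across controls 1 to 3, against 14.9, 13.9 and 14.8 FPKM across MS 1 to 3. Every MS library lay above every control, with means of 12.4 ± 0.173 and 14.6 ± 0.548 (SD, n = 3 each), a log2 fold change of 0.22 (SE 0.05) and an adjusted p of 0.00693 by limma. Sel1l (chromosome 12, 91772817 to 91815931), the adaptor that stabilises HRD1 and brings substrates to it, measured 17.0, 16.3 and 16.5 FPKM across controls 1 to 3, against 21.2, 21.1 and 21.1 FPKM across MS 1 to 3. The 3 MS libraries were nearly equal and all above control, and Sel1l rose by 27.4% (log2 fold change 0.33, SE 0.04, limma adjusted p = 0.000638).

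Herpud1 (chromosome 8, 95113066 to 95122005) encodes HERP, a membrane protein with a ubiquitin-like domain that joins the HRD1 complex and is a classical target of ER stress. It was the most abundant of the 10 genes per length in both groups and measured 55.5, 56.1 and 55.1 FPKM across controls 1 to 3, against 103, 116 and 108 FPKM across MS 1 to 3. The groups were far apart, with means of 55.6 ± 0.485 and 109 ± 6.63 FPKM (SD, n = 3 each), a log2 fold change of 0.95 (95% interval 0.83 to 1.08) and a limma adjusted p of 2.29e-05. Its promoter is the one printed above with both ERSE-II and the ATF4 element.

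**Figure D1:**
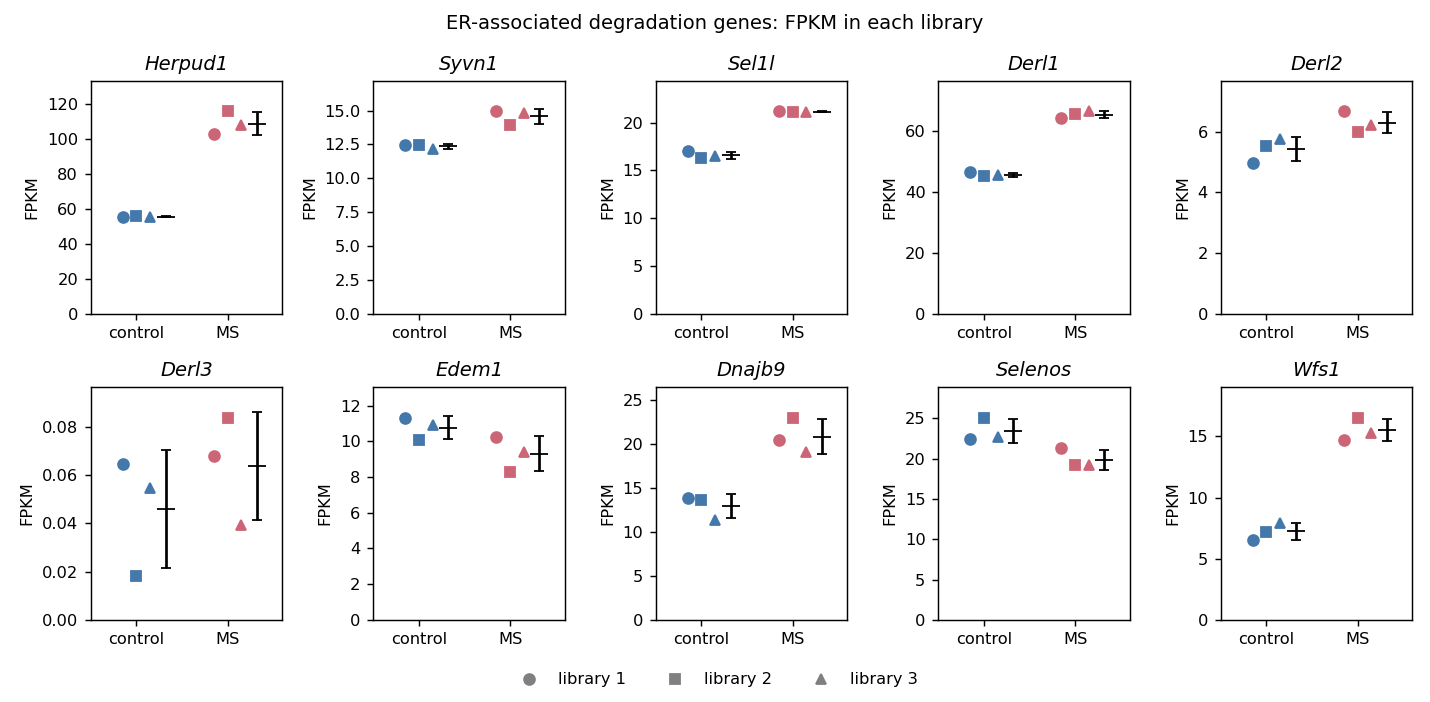
FPKM of the 10 genes in each library, on linear axes that start at 0 and differ between panels. Points are libraries (the symbol gives the replicate number), bars are mean ± SD of 3 libraries. In 8 panels the groups do not overlap (Selenos lower in MS, the others higher), and Derl3 stays under 0.1 FPKM.

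Derlins are membrane proteins with a rhomboid-like fold that help substrates cross the ER membrane. Derl1 (chromosome 15, 57732898 to 57755844) measured 46.4, 45.1 and 45.6 FPKM across controls 1 to 3, against 64.1, 65.6 and 66.4 FPKM across MS 1 to 3. The libraries of each group were close together, and Derl1 rose by 43.1% (log2 fold change 0.51, SE 0.04, limma adjusted p = 8.18e-05). Derl2 (chromosome 11, 70897990 to 70910129) measured 4.98, 5.54 and 5.75 FPKM across controls 1 to 3, against 6.67, 5.98 and 6.21 FPKM across MS 1 to 3. All MS libraries lay above all controls, but the gap was small against the spread and Derl2 did not pass (log2 fold change 0.18, 95% interval 0.02 to 0.34 before adjustment, limma adjusted p = 0.0556). Without control 3 it passed (limma adjusted p = 0.0401), which gave 7 genes higher in place of 6.

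Derl3 (chromosome 10, 75729247 to 75731775), the derlin typical of secretory cells such as plasma cells, measured 0.0648, 0.0183 and 0.0546 FPKM across controls 1 to 3, against 0.0678, 0.0839 and 0.0394 FPKM across MS 1 to 3. The groups overlapped, all values were under 0.1 FPKM, and nothing can be read from their order. In the fit without the low-value filter its log2 fold change was 0.02 (limma adjusted p = 0.579).

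Of the 2 partners in or facing the lumen, Dnajb9 rose and Edem1 did not pass. Dnajb9 (chromosome 12, 44252342 to 44257109) encodes ERdj4, a J-domain co-chaperone of the ER chaperone BiP and a target of XBP1. It measured 13.9, 13.6 and 11.4 FPKM across controls 1 to 3, against 20.4, 23.0 and 19.1 FPKM across MS 1 to 3. All MS libraries were higher, with means of 13.0 ± 1.36 and 20.8 ± 2.00 FPKM (SD, n = 3 each; log2 fold change 0.64, SE 0.09, limma adjusted p = 0.00115). Edem1 (chromosome 6, 108805602 to 108836317), which takes part in trimming mannose from glycoproteins bound for degradation, measured 11.3, 10.1 and 10.9 FPKM across controls 1 to 3, against 10.2, 8.28 and 9.38 FPKM across MS 1 to 3. MS 1 lay within the control range, so the groups overlapped, and Edem1 did not pass (log2 fold change -0.19, 95% interval -0.39 to -0.00 before adjustment, limma adjusted p = 0.0785). It passed as lower without MS 1 (log2 fold change -0.26, limma adjusted p = 0.0356).

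Selenos and Wfs1 are ER membrane proteins tied to the complex. Selenos (chromosome 7, 65729397 to 65739153), a selenoprotein also called VIMP that links p97 to the derlins, measured 22.4, 25.1 and 22.7 FPKM across controls 1 to 3, against 21.3, 19.1 and 19.2 FPKM across MS 1 to 3. Each MS library was below each control, and it was the 1 gene of the 10 that fell (log2 fold change -0.23, SE 0.07, limma adjusted p = 0.0228). The call was lost without control 2, MS 2 or MS 3 (log2 fold changes -0.18, -0.20 and -0.20, limma adjusted p = 0.0760, 0.0720 and 0.0786). Wfs1 (chromosome 5, 37123448 to 37146549) encodes wolframin, the protein mutated in Wolfram syndrome, which in cultured cells brings ATF6 to HRD1 for degradation. It measured 6.54, 7.22 and 7.95 FPKM across controls 1 to 3, against 14.7, 16.5 and 15.3 FPKM across MS 1 to 3. This was the largest rise of the 10 genes, to 2.15 times the control mean (log2 fold change 1.01, 95% interval 0.83 to 1.19, limma adjusted p = 7.00e-05).

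**Figure D2:**
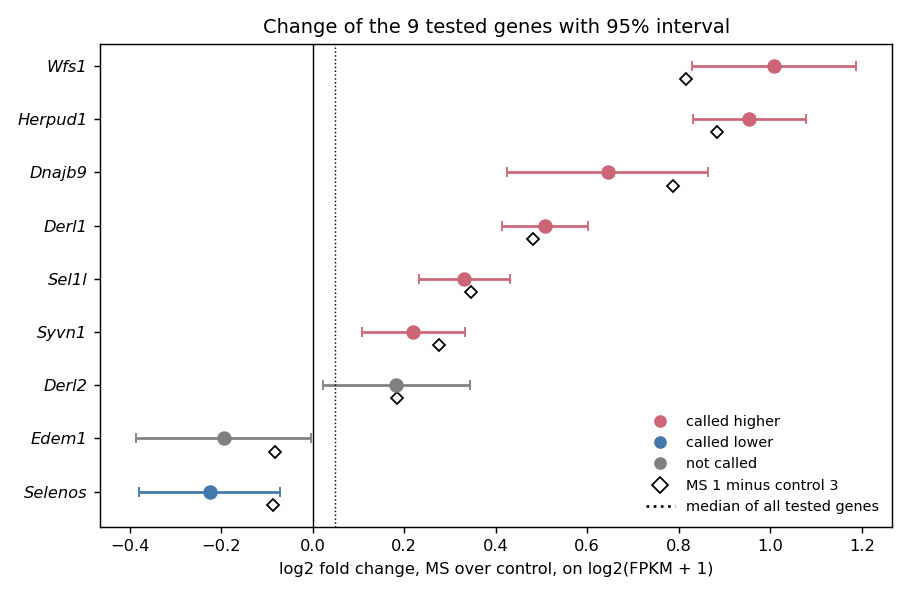
Log2 fold change of the 9 tested genes (filled points, bars are the 95% interval of the limma fit) with the difference of MS 1 minus control 3 (open diamonds) and the median of all tested genes, 0.05 (dotted line). Wfs1 and Herpud1 are at 1.01 and 0.95, and Selenos and Edem1 are the genes below 0.

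Libraries 3 of control and 1 of MS stood apart from the rest by transcripts of other tissues. Salivary gland and tongue markers (20 of 30 listed with a row) made 513 FPKM of control 3, 619 FPKM of MS 1 and 11.8 to 35.8 FPKM of each other library. Kidney markers (22 of 22) summed to 4.59 and 4.65 FPKM for controls 1 and 2, and to between 114 and 126 FPKM for control 3 and all MS libraries. Lens markers (18 of 20) were at 305 and 374 FPKM in control 3 and MS 1, against 1240 to 1635 in the others. Myoblast markers (12 of 12) gave sums of 114 to 131 FPKM for the controls and of 87.7 to 107 FPKM for the stretched cells. Des, the most abundant, overlapped between the groups (51.0 to 59.8 in the controls, 46.7 to 57.8 in MS), as did Musk, Mymk and Pax7. Vcam1, Itga7, Cdon, Cdh15, Myf5, Myod1 and Myog were lower in each MS library than in each control. Chrna1 went the other way (3.75 to 4.25 in the controls, 5.34 to 5.85 in MS). Myod1 was at 0.823 to 2.00 over all libraries, and Pax7 was at 0 in 5 libraries and at 0.0094 in MS 3. Macrophage markers (10 of 10) summed to 7.15 to 8.80 FPKM in the controls and 29.8 to 33.8 FPKM in MS. Cd68 made 24.8 to 29.7 of this in MS, with Adgre1 at 0 and Ptprc under 0.1 throughout. C1qa was at 0 to 0.0803 FPKM in the controls and 0.0539 to 0.746 in MS. C1qb was at 0 in all controls and 0.158 to 0.546 in MS. Fcgr1 and Itgam were also at 0 in all controls and at 0.0275 to 0.0883 in MS. Lyz2, Csf1r and C1qc overlapped between the groups. Fibroblast markers (8 of 8) made 63.3 to 79.1 FPKM of each control and 43.6 to 49.1 FPKM of each MS library, with Dcn the most abundant. Plasma cell and B cell markers (8 of 9) made 38.9 to 40.8 FPKM of each control and 31.6 to 32.7 FPKM of each MS library, nearly all of it Sdc1. The part of these transcripts in the results was not tested. In bulk RNA, fewer cells of a type and less RNA per cell cannot be told apart. Derl3, a gene of secretory cells, was at 0.0546 and 0.0678 FPKM in the libraries with salivary transcripts, within the range of the others.

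The difference between MS 1 and control 3, the pair that shares these transcripts, had the same direction as the whole comparison for each of the 9 genes. This pair is part of the whole comparison. For the 8 genes whose groups did not overlap, the direction of any such pair is fixed, so the match is no separate support. It was 0.88 for Herpud1, 0.82 for Wfs1, 0.79 for Dnajb9, 0.48 for Derl1, 0.34 for Sel1l and 0.28 for Syvn1 on the log2 scale. For Edem1 and Selenos it was -0.08 and -0.09, smaller than over all libraries. A limma fit with a term for 3 library sets rests on this pair and left 5 genes higher and 0 lower, with Syvn1 (limma adjusted p = 0.0632) and Selenos (limma adjusted p = 0.537) no longer called. Without both libraries, 6 genes were higher and 1 lower, but the remaining controls and MS libraries then differ in kidney transcripts, whose part in the result was not tested.

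The order of levels per length differed in its middle. In control, the sequence from high to low by mean FPKM was Herpud1, Derl1, Selenos, Sel1l, Dnajb9, Syvn1, Edem1, Wfs1, Derl2 and Derl3, and the library ranges of neighbours overlapped for Dnajb9 and Syvn1 alone. In MS, Selenos at 19.9 FPKM no longer stood above Sel1l at 21.1, and the ranges of Sel1l and Dnajb9, and of Dnajb9 and Selenos, overlapped. Wfs1 went from the 8th place at 7.23 FPKM to the 6th at 15.5, where its range overlapped that of Syvn1. Herpud1 and Derl1 had the highest mean levels and Derl2 and Derl3 the lowest in both groups.

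Ratios between related genes compare them within a library. Per library, Herpud1 was 4.47 to 4.53 times Syvn1 in control and 6.87 to 8.31 times Syvn1 in MS. Sel1l, the direct partner of the ligase, was 1.34 ± 0.0333 times Syvn1 in control and 1.45 ± 0.0558 times in MS (SD, n = 3 each). Derl1 was 8.46 ± 0.743 times Derl2 in control and 10.4 ± 0.714 times in MS. Herpud1 was 7.92 ± 0.685 times its paralogue Herpud2 in control and 13.3 ± 0.838 times in MS. Selenos was 0.889 ± 0.0576 of Selenok, another selenoprotein of the ER membrane, in control and 0.701 ± 0.0320 in MS. Edem1 was 0.744 ± 0.0527 of Edem2, a related mannosidase-like protein, in control and 0.753 ± 0.0150 in MS. For 5 of the 6 ratios the groups did not overlap, which gives an exact two-sided permutation p of 0.10, the smallest that 3 against 3 libraries allow (0.12 after Benjamini-Hochberg adjustment over the 6 ratios). Among single tested genes 62.7% did not overlap, and the share for ratios of other gene pairs was not computed. The ratios are made from the FPKM of the single genes, so they are not a separate result. For Edem1 over Edem2 the exact permutation p was 0.90.

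**Figure D3:**
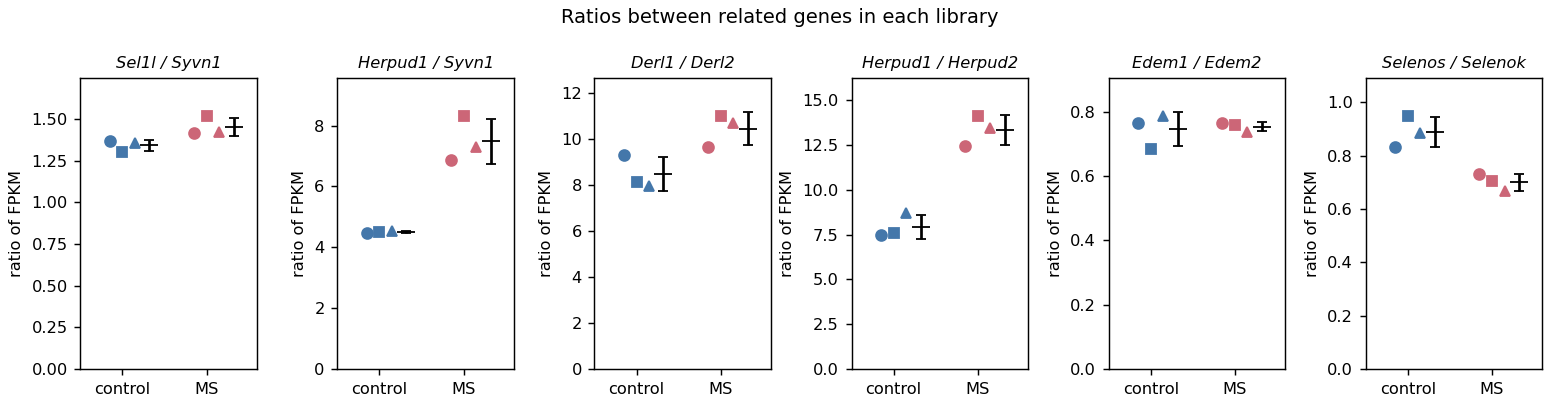
Ratio of the FPKM of related genes in each library, on linear axes from 0. Points are libraries (circle, square and triangle for replicates 1, 2 and 3; blue control, red MS) and bars are mean ± SD of 3. Herpud1 over Syvn1 separates the groups, from 4.47 to 4.53 in control and from 6.87 to 8.31 in MS, while Edem1 over Edem2 does not.

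The other genes of the route are given by step. Of 60 tested genes on 3 lists of other ERAD genes, 27 rose and 10 fell, 45.0% and 16.7%, with a median log2 fold change of 0.13. The background shares are the 30.6% and 23.2% above. Among 14 genes of lumenal recognition, 4 rose and 5 fell (median 0.02). Hspa5, which encodes BiP, rose from 139.7 ± 4.06 to 205 ± 9.39 FPKM (log2 fold change 0.55, limma adjusted p = 0.000144), and the lectin chaperones Calr and Canx rose by 0.21 and 0.20. Dnajc10, the disulphide reductase ERdj5, fell from 56.9 ± 1.77 to 36.0 ± 2.51 FPKM (-0.65), and Hsp90b1, the ER form of HSP90, fell by 0.47 on the log2 scale.

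Among 21 ligases, ubiquitin-conjugating enzymes and membrane partners, 10 rose and 2 fell (median 0.10). Rnf185, a ligase of ER membrane proteins, had the largest rise, from 11.8 ± 0.376 to 20.0 ± 0.843 FPKM (SD, n = 3 each; log2 fold change 0.71, limma adjusted p = 5.50e-05). Ube2g2, the conjugating enzyme that works with the ligase gp78, and Tmub1, a membrane protein with a ubiquitin-like domain, rose by 0.44 and 0.42. The ligases Rnf145 and Tmem129 fell, with log2 fold changes of -0.60 and -0.27, the latter not called without MS 2 (limma adjusted p = 0.0559).

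Among 25 genes of extraction and processing in the cytosol, 13 rose and 3 fell (median 0.20). The largest rises were in the p97 adaptors Ubxn4 (28.3 ± 0.355 to 41.8 ± 1.52 FPKM, log2 fold change 0.55) and Ubxn6 (0.53) and in the deubiquitinase Atxn3 (0.45). Usp25, a deubiquitinase, and Ubqln2, a shuttle to the proteasome, fell by 0.43 and 0.28 on the log2 scale. The deposited table's own annotation gave a like count: of 48 tested genes annotated to the ubiquitin-dependent ERAD pathway other than the 10 described, 25 rose and 8 fell (median 0.17). That term is carried by 6 of the 7 described genes whose annotation text could be read here. Of these 48 genes, 27 are also on the 3 lists, so the count is not independent.

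**Figure D4:**
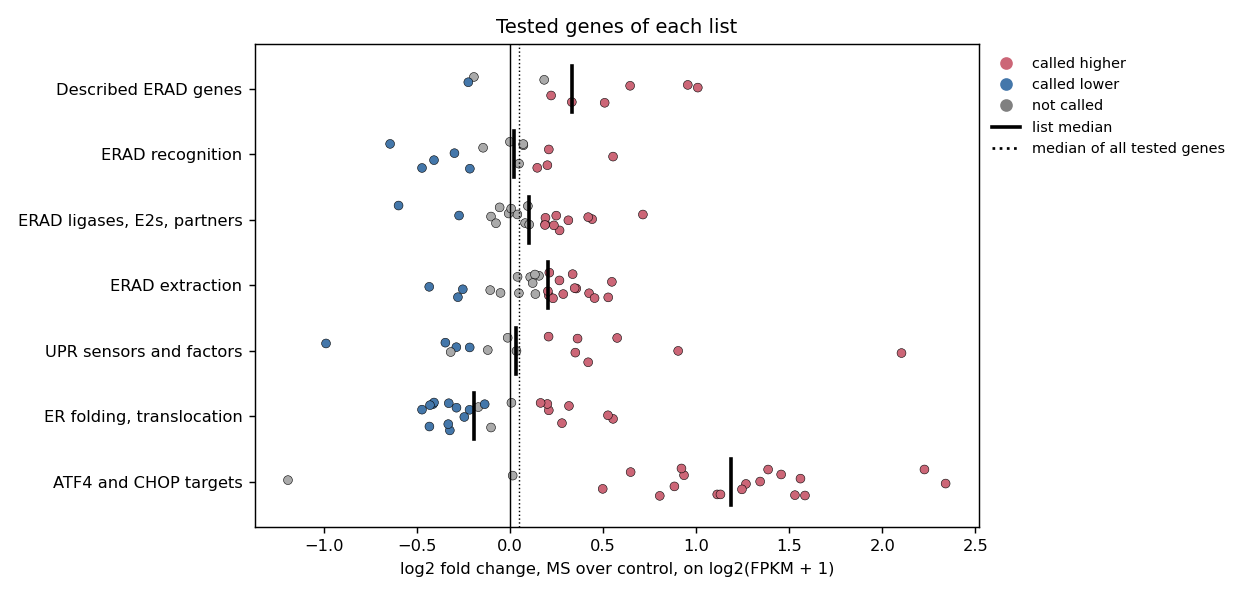
Log2 fold change of each tested gene by list, coloured by the limma call, with the list median (bar) and the median of all tested genes (dotted line). The 9 described genes have a median of 0.33, the list of ER folding and translocation targets one of -0.20 and targets of ATF4 and CHOP one of 1.19.

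Related branches of the unfolded protein response were read from the same fit. The counts here stand beside 30.6% higher and 23.2% lower over all tested genes. A list of ER folding and translocation targets holds the usual companions of Dnajb9 and Edem1 under ATF6 and XBP1. Of its 22 tested genes, 5 of them also on the recognition list, 7 rose and 12 fell (median -0.20). Beside Hspa5, Crebrf (0.53), on this list but a regulatory factor, and the chaperone Hyou1 (0.32) rose most. Hsp90b1 (-0.47) and the secreted ER stress factor Manf (-0.43) fell most. Of 20 targets of ATF4 and CHOP, 18 rose and 0 fell (median 1.19), led by Trib3 (2.34), Chac1 (2.23) and Sesn2 (1.58). Cebpb, named after its values were seen, did not pass: it measured 31.5, 35.8 and 2.27 FPKM across controls 1 to 3, against 8.80, 5.62 and 4.04 FPKM across MS 1 to 3 (log2 fold change -1.19, limma adjusted p = 0.286). Its value rests on control 3: without that library Cebpb was called lower (log2 fold change -2.33, limma adjusted p = 0.000432), and without control 3 and MS 1 likewise (-2.58, limma adjusted p = 2.73e-05). With the term for 3 library sets it was called higher (1.58, limma adjusted p = 0.00421), so the count of 0 lower on this list holds for the whole set of libraries and not without control 3. Of 15 sensors and transcription factors, 7 rose and 4 fell. Ddit3, which encodes CHOP, and Atf4 rose most (2.1 and 0.90), followed by Creb3 (0.57). Creb3l2, an ER-bound factor of secretory cells, fell from 11.6 ± 0.525 to 5.37 ± 0.558 FPKM (-0.99) and the CCAAT-binding subunit Nfyc fell by 0.35 on the log2 scale. Xbp1 averaged 30.4 ± 1.63 FPKM without stretch and 30.1 ± 0.369 FPKM with it (log2 fold change -0.01, 95% interval -0.13 to 0.11, limma adjusted p = 0.844). Its level was chosen for mention after its values were seen, and gene-level FPKM does not show the splicing that activates it.

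Of all genes searched, those whose profile over the 6 libraries was nearest to that of Wfs1, by Euclidean distance of centred log2(FPKM + 1) among 7225 genes averaging 5 FPKM or more, were Srxn1 (0.08), Ankrd13b (0.08) and Utp4 (0.09). Nearest to Selenos were Nipsnap2, Slc25a17 and Desi2, each at 0.07. These distances describe 6 libraries that fall into 2 groups, and many genes share such a profile.

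A few rows overlap the described genes on the map. The 3' end of Syvn1 overlaps Mrpl49, on the opposite strand, by 91 bases, and Mrpl49 ranged over 17.0 to 21.3 FPKM without stretch and 20.7 to 21.3 FPKM with it. The libraries were strand-marked, but the sources used here do not give whether counting used the strand, so the origin of reads there is unknown. Gm15890 overlaps the start of Herpud1 on the opposite strand and was at most 0.251 FPKM in any library.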

How the data were processed

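The deposited table holds FPKM per gene and library, which the authors computed, per the file headers. The tools listed, with no role or order, per the submitters' processing notes are StringTie 2.1.6, HISAT2 2.2.1, cutadapt 1.9, edgeR and DESeq2, and the build is mm39. The sources used here do not give filters, the treatment of multi-mapping reads or use of the strand. FPKM are not counts, so the depth per library is unknown and no count test was run. FPKM sums ranged from 323607 to 329968 in the controls and from 298991 to 304570 in MS, so each MS sum was below each control. Per library, 11879 to 12093 genes reached 1 FPKM.

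Symbols came from a GENCODE M21 name table (31077 of 32815 IDs matched). The 12028 genes averaging 1 FPKM or more were tested as log2(FPKM + 1) in limma 3.58.1 (R 4.3.3; eBayes with trend), MS against control, two-sided, Benjamini-Hochberg adjusted over all tested genes. Fold changes on this scale understate changes of low genes. The steps were tested on simulated data. The labels do not tie the 3 libraries of each group to separate cultures. The p-values therefore measure only library-to-library spread, possibly technical. Replicate numbers did not pair the libraries. Alternatives varied the pseudocount, filter, scaling, library weights, block, library sets and libraries left out.

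The members and gene lists were chosen with earlier results of these data known. All 10 members are named, and of each other list up to 3 called genes with the largest rise and 2 with the largest fall; Xbp1, Cebpb and the partners in ratios are outside this rule. Listed genes without a matching symbol (Ero1a and Marchf6 among ERAD genes) were not analysed here. Svip, on the extraction list, was under the filter. Promoter windows are from RefSeq, GRCm38.p6.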

Additional observations from a re-analysis of the deposited data

How the results depend on the processing

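Over 17 alternatives no tested gene of the 10 changed direction, but most of these settings could hardly have changed it. The filter, the block and the term for the set of control 3 and MS 1 left each estimate as it was. For the 8 genes whose groups did not overlap, leaving out or weighting libraries, or changing the pseudocount, cannot turn the direction. The unchanged direction is therefore no separate support. Wfs1, Herpud1, Dnajb9, Derl1 and Sel1l stayed called higher in each, with log2 fold changes of 0.82 to 1.10, 0.88 to 1.00, 0.56 to 0.79, 0.46 to 0.52 and 0.28 to 0.35. The number of genes called lower was 0 without the low-value filter (Selenos, limma adjusted p = 0.0583) and 2 with median-ratio scaling (Selenos and Edem1). Leaving out 1 library at a time gave 0 to 2 genes lower, 6 or 7 higher, 24 to 28 other ERAD genes higher and 8 to 11 lower, and 5385 to 6491 of all genes called. With a term for 3 library sets, chosen after seeing the data, 0 of the 10 were lower, 14 other ERAD genes rose and 4 fell, and 3166 of all genes were called, where the estimate rests on 1 library of each group. That fit lost the calls of many genes on the other lists, among them Calr, Canx, Usp25, Ubqln2, Hyou1, Manf and Nfyc. Derl2 was also called higher with a term for the set of control 3 and MS 1 (limma adjusted p = 0.0435), and weighting the libraries also called it (limma adjusted p = 0.0297). Cebpb, not called in all libraries, was also called lower with library weights (log2 fold change -2.08, limma adjusted p = 0.0201). The calls of Crebrf, Calr and Tmem129 were lost without the low-value filter.

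With the replicate number as a block, 6 of the 10 genes were higher and 1 lower, 25 other ERAD genes rose and 9 fell, and 5890 of all genes were called. The lower gene was then Edem1 (limma adjusted p = 0.0380) and not Selenos (limma adjusted p = 0.0557). Deviations of same-numbered libraries from their group means correlated at -0.334, 0.245 and -0.372, so the numbers do not pair the libraries. Without stated depth, the precision of the Derl3 values is unknown.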
